A study of Mus musculus with 6 samples.

Results

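The genes described here encode the proteins of the nuclear pore and the receptors that carry cargo through it. Members were the rows of the deposited count table whose symbol begins with Nup, Kpna, Kpnb, Ipo or Xpo and then a digit; 1 further row, the pseudogene Kpna2-ps, was left out by the rule. This gave 40 genes of 45808 rows, 21 nucleoporin (Nup) genes and 19 receptor genes. The rule reads the symbol alone. The libraries came from spleen T cells of mice with a C57BL/6 background, 2 months old, either wild type or with the genotype given as Drp1-/-, here called KO, with 3 libraries of each. Drp1, encoded by Dnm1l, is the GTPase that divides mitochondria. All cells had been activated in culture with antibodies to CD3 and CD28 plus the cytokine IL-2, and polyadenylated RNA was sequenced. The promoter that drove the deletion, the sex of the mice, the time in culture and whether libraries came from separate animals are not stated in the labels. The p-values therefore reflect the spread among the libraries at hand, which may be technical.

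The nuclear pore is a ring-shaped channel through the nuclear envelope, built from many copies of a small set of nucleoporins. Stacked scaffold rings hold flexible nucleoporins rich in phenylalanine-glycine (FG) repeats, which fill the channel and bind the transport receptors. Importins pick up cargo in the cytoplasm and release it in the nucleus when they bind the GTPase Ran in its GTP form, while exportins bind cargo together with Ran-GTP in the nucleus and release it outside. In T cells this traffic carries transcription factors such as NFAT and NF-kB into the nucleus after stimulation, and cells that divide make new pores.

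Several features of the libraries moved with genotype and bear on every comparison here. Total counts ran from 24738017 to 34730475. Dnm1l was at 116.6 to 123.2 CPM (counts divided by the library total times its TMM scaling factor) in wild type against 92.6 to 100.7 CPM in KO, in the direction of the labels. Wild-type replicate 1 was unlike the other two of its group, with a chi-square per gene of 12.2 and 13.6 against them, where they differed from each other by 2.56. Xist was at 0 to 0.101 CPM in wild type against 418 to 472 CPM in KO, while 4 of 4 Y-linked genes listed were read in all libraries and were lower in KO, such as Ddx3y, at 106 to 154 CPM in wild type against 69.8 to 77.3 CPM in KO. Each KO library thus held both Xist and Y-linked reads, with mean Y-linked levels of 0.544 to 0.732 of those in wild type; whether KO libraries pool RNA of male and female mice was not tested and the labels do not say. Sex of the source mice and genotype cannot be told apart. T cell markers were abundant, and the summed level of 11 of them was 3933 to 4093 CPM in wild type against 3357 to 3443 CPM in KO, with 8 of 11 lower. Summed gamma-delta T cell markers (7 genes, 6 called higher and 1 lower) were at 52.7 to 57.4 CPM in wild type against 108 to 127 CPM in KO. NK markers (6 genes, 4 tested and all 4 higher) were at 112 to 125 and 151 to 164 CPM, and B cell markers (9 genes, 1 higher and 2 lower) at 495 to 506 and 429 to 448 CPM. The 10 markers of macrophages, monocytes and neutrophils summed to 28.5 to 31.9 CPM in wild type against 22.5 to 25.8 CPM in KO, with S100a8 and S100a9 at 0. Most of that sum was Cd68, at 24.6 to 27.7 CPM in wild type against 19.1 to 21.3 CPM in KO. Cd68 and Itgam were called lower, while Lyz2, at a mean of 0.187 and 0.489 CPM, was called higher and the scarce, untested Mpo and Cd14 lay above wild type in all KO libraries. Dendritic cell markers (6 genes) summed to 12.8 to 15.5 and 13.5 to 14.1 CPM, with Siglech and Xcr1 at 0. The 6 mast cell and basophil markers summed to 55.0 to 63.0 CPM in wild type against 30.7 to 33.1 CPM in KO, but Kit carried the sum (mean 57.8 and 24.6 CPM), and the other 4 tested, Cpa3, Fcer1a, Mcpt8 and Ms4a2, were called higher, by 3.92-fold to 7.21-fold. Red cell and platelet markers (8 genes, 4 tested and all 4 higher) summed to 7.75 to 10.1 and 20.5 to 23.4 CPM. Their part in the results below was not tested. In bulk RNA, fewer cells of a type and less RNA per cell cannot be told apart.

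Most pore and transport receptor genes were higher in KO, by modest amounts, and the rise was spread over the scaffold of the pore, the importin beta receptors and the exportins. Of 40 members, 38 had enough counts to be tested; Kpna7, with 1 to 10 counts per library, and Nup62cl, a relative of Nup62 with 0 or 1, had not. The edgeR quasi-likelihood test, at a Benjamini-Hochberg adjusted p under 0.05 over all 14209 tested genes, called 24 members higher in KO (63.2% of those tested, where 26.7% of all tested genes were called higher) and 2 lower (5.26%, against 26.1% of all tested genes), while 12 did not pass. Of the tested members 68.4% were thus called in either direction, against 52.9% of all tested genes. The median log2 fold change of KO over wild type was 0.24, against 0.01 over all tested genes. Of the 24 that rose, 7 rose by at least 1.5-fold (18.4% of tested members, against 8.36% of all tested genes): Nup93, Kpna2, Nup37, Nup85, Nup35, Xpo5 and Ipo4. Ipo4 was at the cut, at 1.5-fold. Without wild-type replicate 1, the log2 fold changes of Nup85, Ipo4 and Xpo5 were 0.55, 0.50 and 0.49, which is under 1.5-fold. Those of Nup93, Nup37, Nup35 and Kpna2 were 0.85, 0.66, 0.61 and 0.60, which is above it. Wild-type replicate 1 was the lowest library in 18 of the 24. Together the 40 genes took 0.534%, 0.552% and 0.563% of the counts of wild-type replicates 1, 2 and 3, against 0.638%, 0.675% and 0.668% of KO replicates 1, 2 and 3.

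The groups were well parted for these genes. In 28 of the 38 tested members (73.7%) every KO library lay above every wild-type library, as it did for 32.5% of all tested genes, and this held for each of the 24 called higher. In 3 members, Nup98, Nup50 and Ipo8, every KO library lay below, as for 30.8% of all tested genes. Wild-type replicate 1 was the lowest of the 6 libraries in 20 members and the highest in 6 (Nup98, Nup88, Nup50, Kpna4, Kpna1 and Ipo8). Without it, 27 members were called higher and 2 lower, with a median log2 fold change of 0.23. With library totals alone as the scaling, 31 members were higher and 2 lower with a median of 0.31, but 62.0% of all called genes were then higher, against 50.6% with TMM. The members that passed only with that scaling or another setting were Nup54, Nup88, Nup210, Kpna6, Kpnb1, Ipo5 and Xpo6, all as higher, and Kpna3 with 1 library left out.

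**Figure D1:**
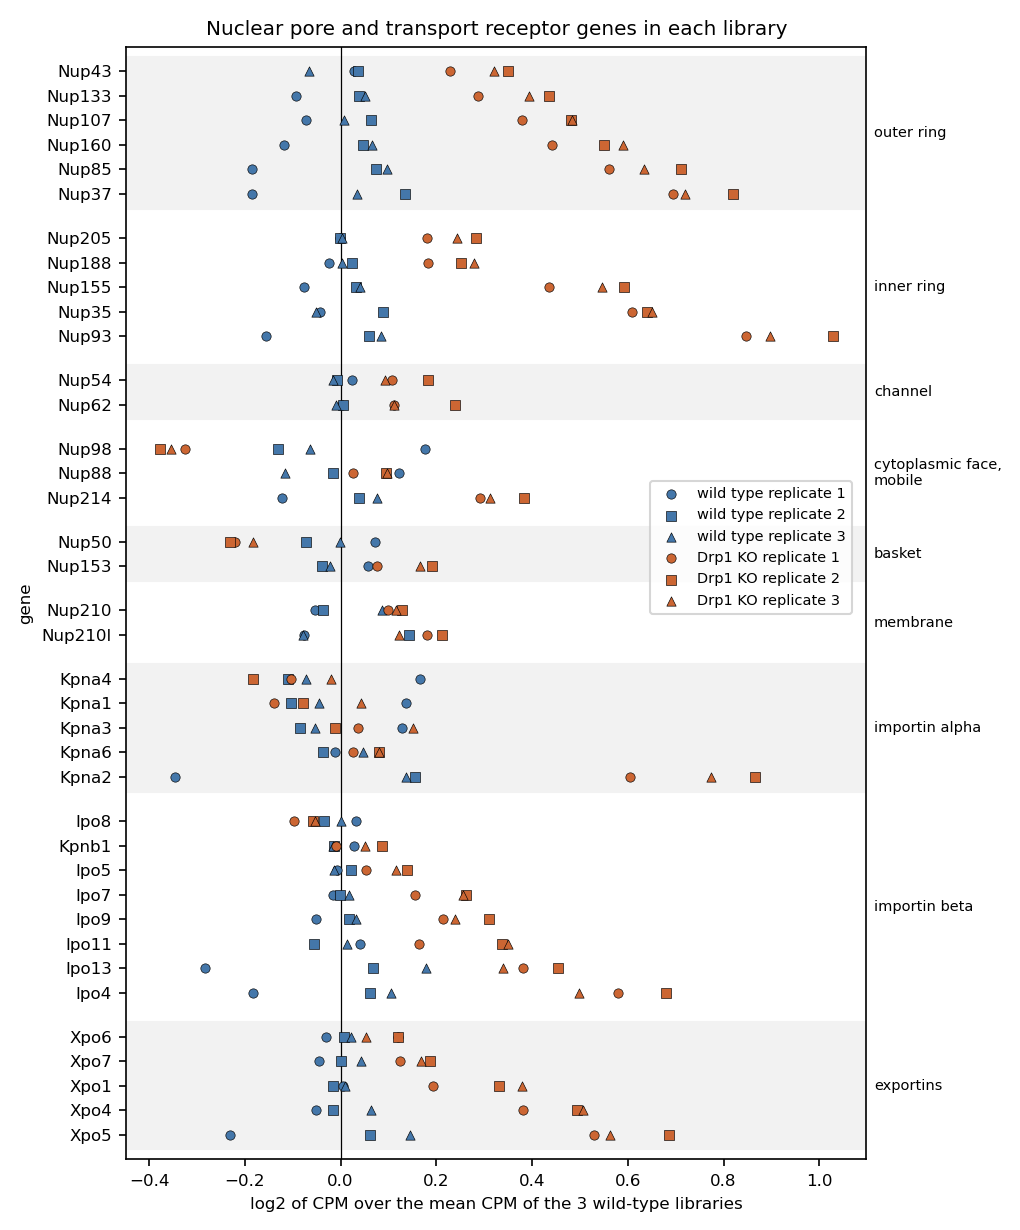
Level of each of the 38 tested members (y axis, grouped by role) in each library, as the log2 of its CPM over the mean CPM of the 3 wild-type libraries (x axis). Points are libraries, coloured by genotype and shaped by replicate number; in the outer and inner ring all KO points lie to the right of all wild-type points, and for Nup98 and Nup50 they lie to the left.

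The outer ring of the pore is formed by the Y complex, the scaffold unit that coats the membrane on both faces and seeds new pores. All 6 genes placed in it here rose, with log2 fold changes from 0.30 to 0.74 and a median of 0.49. Nup98, whose gene also yields a Y complex subunit, was placed with the mobile FG nucleoporins and is described below. Nup37, a small arm subunit (chromosome 10, 88146992 to 88178390 in mm10, plus strand), was at 28.4, 35.5 and 33.1 CPM in wild-type replicates 1, 2 and 3, against 52.3, 57.1 and 53.3 CPM in the KO replicates. The lowest KO library was well above the highest wild-type library, and wild-type replicate 1 was the lowest of all. The mean went from 32.3 ± 3.58 to 54.2 ± 2.5 CPM (SD, n = 3 each), a log2 fold change of 0.74 ± 0.08 (SE; edgeR adjusted p = 7.48e-05). Nup85 (chromosome 11, 115564434 to 115583985, plus strand) forms an arm of the Y together with Seh1. It was at 81.9, 98.1 and 99.6 CPM in wild type and 137.5, 152.5 and 144.7 CPM in KO. Its groups did not overlap either, and its log2 fold change was 0.63 ± 0.08 (edgeR adjusted p = 0.000129).

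The other 4 outer ring members rose less. Nup160 (log2 0.53 ± 0.06), Nup107 (log2 0.45 ± 0.05) and Nup133 (log2 0.37 ± 0.06) form the stalk and hub of the Y, and Nup43 (log2 0.30 ± 0.06, and 0.165 after offsets for GC content and length of transcripts) is a further small subunit. Their means in wild type were 95.6, 100.4, 65.5 and 33.4 CPM in that order. Without wild-type replicate 1 the median of the 6 was 0.44.

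The inner ring joins the scaffold to the membrane and to the FG nucleoporins of the channel, and all 5 of its members rose (median log2 0.53, and 0.49 without wild-type replicate 1). Nup93, its organising linker (chromosome 8, 94214564 to 94317227, plus strand), had the largest fold change of the 38. It was at 47.0, 54.5 and 55.4 CPM in wild type and at 94.0, 106.6 and 97.3 CPM in KO, so that the lowest KO library stood far above the highest wild-type one. The log2 fold change was 0.92 ± 0.07 (edgeR adjusted p = 2.91e-05), or 1.90-fold. Nup155, a membrane-binding scaffold protein (chromosome 15, 8109273 to 8161247, plus strand), was at 67.3, 72.5 and 73.0 CPM in wild type and 96.0, 107.0 and 103.6 CPM in KO. This was a rise of 0.53 ± 0.06 on the log2 scale with groups that did not overlap (edgeR adjusted p = 9.41e-05).

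The large paired scaffold proteins of the same ring moved least. Nup205 was at 236.9, 237.0 and 237.4 CPM in wild type and at 268.8, 288.3 and 280.6 CPM in KO (log2 0.24 ± 0.04), and Nup188 had a log2 fold change of 0.24 ± 0.05. Wild-type libraries differed little for Nup205, and its small change passed the test. Nup35, which binds Nup155 and Nup93, was the scarcest ring member, at 5.33 to 5.88 CPM in wild type against 8.43 to 8.67 CPM in KO (log2 0.63 ± 0.09). The 11 ring genes together, a grouping made after their values were seen, had a median log2 fold change of 0.53, against 0.13 for the 9 other tested nucleoporin genes, of which 3 rose and 2 fell. Nup98, whose gene also yields a Y complex subunit, was counted among the 9. The difference between these groups was not tested.

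Promoter letters were read for the members because most moved in 1 direction. RefSeq windows (build GRCm38.p6, the same genome build as mm10) from 250 bases before to 50 bases after the transcript start were matched by symbol for 31 of the 40 members. The motif searched was CACGTG, the E-box bound by Myc with Max and by related factors, which reads the same on both strands. It was present in 5 of the 31 members (16.1%), against 11.8% of 9675 tested genes and 8.09% of all 27025 genes that had a window. Of the 5 members, 4 rose (Nup188, Nup93, Ipo7 and Ipo4) and 1, Nup54, did not pass the test, where 19 of all 31 matched members rose. The stretches below show 60 bases upstream of the start around a match in ring and importin genes that rose, on the gene's own strand, with the motif in capitals.
Nup93, chr8:94214362-94214421, plus strand: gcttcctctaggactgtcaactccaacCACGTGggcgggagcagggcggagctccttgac
Nup188, chr2:30286323-30286382, plus strand: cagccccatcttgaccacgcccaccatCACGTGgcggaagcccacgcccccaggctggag
Ipo7, chr7:110018151-110018210, plus strand: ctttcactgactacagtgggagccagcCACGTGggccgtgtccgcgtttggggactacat
The first base of the motif lay 175 bases upstream of the start in Nup93, 66 in Nup188 and 137 in Ipo7, and Nup188 held a second match 24 bases upstream. Motifs of the E2F type (TTTCCCGC, TTTGGCGC or TTTCGCGC, both strands, searched after the values were seen) were in 2 of the 31 members (6.45%), Nup210 and Ipo7, against 4.12% of tested genes. A match is a run of letters and does not show that a factor binds there.

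The FG nucleoporins of the channel and the proteins on the cytoplasmic face gave small and mixed differences. Nup62, the main FG protein of the central channel (chromosome 7, 44816088 to 44830812, plus strand), was at 135.9, 136.2 and 134.8 CPM in wild type and 146.6, 160.2 and 146.6 CPM in KO. Its rise of 0.16 ± 0.05 on the log2 scale passed the test (edgeR adjusted p = 0.0239) but not without wild-type replicate 2 (0.0602), wild-type replicate 3 (0.0728) or KO replicate 2 (0.119), nor after offsets for GC content and length of transcripts (0.148). Its first exons overlap those of Il4i1, so counts of the pair may be mixed. Nup54, its partner in the channel, was at 53.6 to 55.2 CPM in wild type against 57.9 to 61.6 CPM in KO and did not pass (log2 0.13 ± 0.05, edgeR adjusted p = 0.0533), though the groups did not overlap and it passed without wild-type replicate 1 (0.0279). With the GC and length offsets its log2 fold change was -0.007 (adjusted p = 0.924).

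Nup214, an FG protein of the cytoplasmic face that binds exportin 1 (chromosome 2, 31974436 to 32053975, plus strand), was at 81.1, 90.7 and 93.2 CPM in wild type and 108, 115 and 110 CPM in KO. It rose by 0.33 ± 0.06 on the log2 scale (edgeR adjusted p = 0.00130). Its partner Nup88 did not pass (log2 0.07 ± 0.06, edgeR adjusted p = 0.335), and its groups overlapped because wild-type replicate 1, at 188 CPM, was the highest library; without that library it passed (log2 0.14, adjusted p = 0.0185).

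Nup98 and Nup50 were the members that fell. Nup98 (chromosome 7, 102119398 to 102210176, minus strand) encodes a mobile FG protein that also works inside the nucleus, and the same gene gives rise to Nup96, a Y complex subunit cut from a joint precursor. Its level was 147, 119 and 124 CPM in wild type and 103.8, 100.1 and 101.6 CPM in KO. All KO libraries lay below all wild-type libraries, and wild-type replicate 1 was far above the rest. The log2 fold change was -0.35 ± 0.07 (edgeR adjusted p = 0.00277), and -0.26 without that library (0.000105). Counts per gene do not part the Nup98 and Nup96 products, so the direction of the Y complex subunit made from this gene is not measured separately.

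Nup50 (chromosome 15, 84923411 to 84942963, plus strand) is a mobile protein of the nuclear basket that helps importin alpha to release its cargo. It was at 143.1, 129.6 and 136.1 CPM in wild type and 117.0, 116.1 and 120.0 CPM in KO, without overlap, a log2 fold change of -0.21 ± 0.05 (edgeR adjusted p = 0.00572), and -0.135 (0.0332) with library totals alone as the scaling. Nup153, the FG protein to which Nup50 binds in the basket (chromosome 13, 46679905 to 46727940, minus strand), went the other way. Its values were 203.4, 190.4 and 192.5 CPM in wild type and 206.0, 223.2 and 219.2 CPM in KO. The gap between the highest wild-type and the lowest KO library was small, and the log2 fold change of 0.15 ± 0.05 (edgeR adjusted p = 0.0308) did not pass without wild-type replicates 2 (0.110) or 3 (0.0972) or KO replicates 2 (0.123) or 3 (0.111), in DESeq2 (0.0517) or with the GC and length correction (0.0510). With library totals it was 0.221 (0.00227).

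Nup210, a membrane-spanning nucleoporin known for roles in T cell survival and muscle differentiation (chromosome 6, 91013068 to 91116829, minus strand), was the most abundant nucleoporin gene per length. It was at 554, 561 and 611 CPM in wild type and 617, 629 and 624 CPM in KO. The groups did not overlap, by a narrow gap to wild-type replicate 3, and the log2 fold change of 0.11 ± 0.05 did not pass (edgeR adjusted p = 0.0629). It passed without wild-type replicate 3 (0.0193), with upper-quartile scaling (0.0355), with the GC and length correction (0.00556), and with library totals alone as the scaling (0.00949). Its paralog Nup210l was scarce, at 1.87 to 2.18 CPM in wild type against 2.15 to 2.29 CPM in KO (log2 0.17 ± 0.14, edgeR adjusted p = 0.346).

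**Figure D2:**
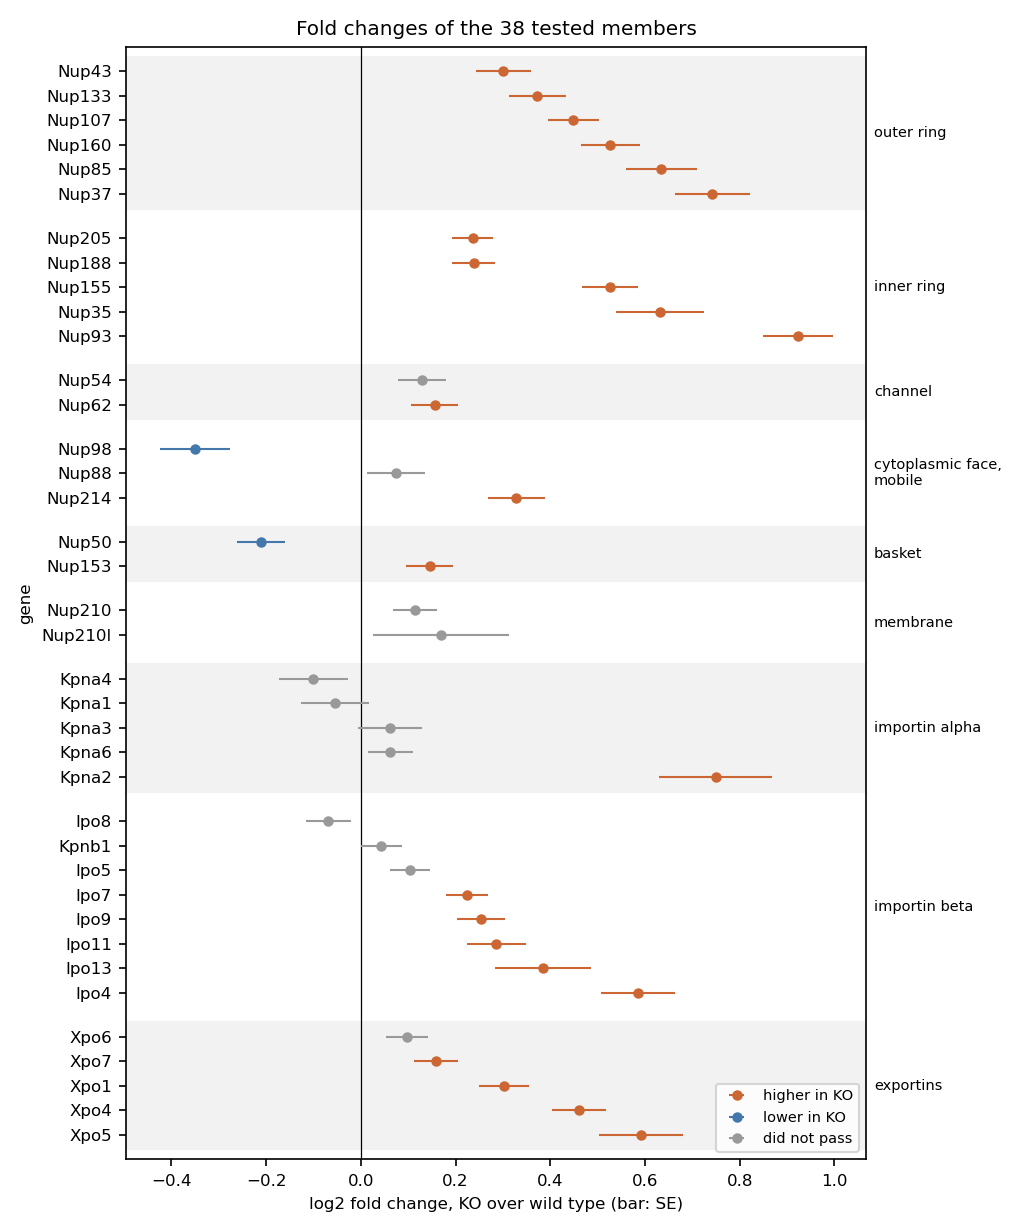
Log2 fold change of KO over wild type (x axis) with its standard error for the 38 tested members (y axis, grouped by role), coloured by whether the edgeR adjusted p was under 0.05. Nup93 is farthest to the right at 0.92, and Nup98 farthest to the left at -0.35.

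Importin alpha proteins are adaptors that recognise the classical nuclear localisation signal and dock on importin beta. Of the 6 genes in the table, 5 were tested and only Kpna2 rose; none of the tested ones fell. Kpna2 (chromosome 11, 106988629 to 106999541, minus strand), the adaptor typical of dividing cells, was at 67.5, 95.7 and 94.4 CPM in wild type and 130.5, 156.5 and 146.8 CPM in KO. Wild-type replicate 1 was far below the other libraries, yet the KO group stayed clear of all 3 wild-type libraries. The mean went from 85.9 ± 15.9 to 145 ± 13.1 CPM (SD, n = 3 each), with a log2 fold change of 0.75 ± 0.12 (edgeR adjusted p = 0.000543), and 0.60 without wild-type replicate 1 (7.57e-08). The pseudogene Kpna2-ps had 2 to 8 counts per library, against 1585 to 4910 for Kpna2.

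The other adaptors showed no called difference. Kpna4 (chromosome 3, 69067149 to 69127113, minus strand), an importer of NF-kB subunits, was at 249.8, 206.6 and 212.0 CPM in wild type and 207.3, 196.3 and 219.7 CPM in KO. These values overlap, with wild-type replicate 1 alone on the high side (log2 -0.10 ± 0.07, edgeR adjusted p = 0.277). Kpna1 (log2 -0.05 ± 0.07), Kpna3 (log2 0.06 ± 0.07) and Kpna6 (log2 0.06 ± 0.05) overlapped as well; Kpna3 passed as higher without wild-type replicate 1 (log2 0.13, edgeR adjusted p = 0.0429).

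Levels can be set side by side per length, as RPKM, the CPM divided by the exon length in kilobases. On that scale Kpna2 made up 20.8%, 29.9% and 29.0% of all importin alpha in wild-type replicates 1, 2 and 3, against 36.0%, 40.6% and 37.1% of KO replicates 1, 2 and 3. It was the third adaptor in wild-type replicate 1 and the first in the other 5 libraries. The share of Kpna4 was 24.7%, 20.8% and 20.9% in wild type and 18.4%, 16.4% and 17.8% in KO, so the per-length ratio of Kpna2 to Kpna4 was 0.841, 1.44 and 1.38 in wild type and 1.96, 2.48 and 2.08 in KO. Shares within a library depend on each other, and the lower shares of Kpna1, Kpna3, Kpna4 and Kpna6 go with the rise of Kpna2.

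**Figure D3:**
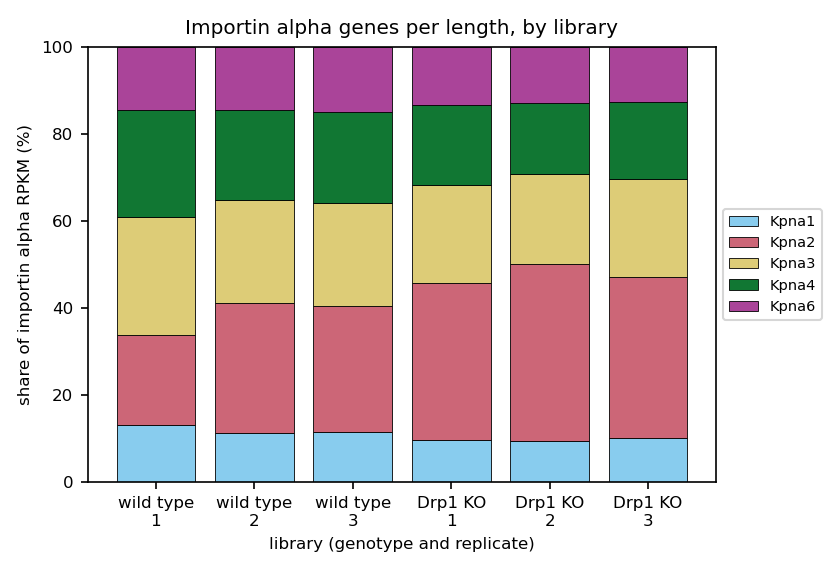
Share of summed importin alpha RPKM (y axis, percent) held by Kpna1, Kpna2, Kpna3, Kpna4 and Kpna6 in each library (x axis). Kpna7, under 0.1% in all libraries, is part of the sum but was not drawn. The Kpna2 segment takes 20.8% to 29.9% in wild type and 36.0% to 40.6% in KO.

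Importin beta receptors bind FG nucleoporins themselves and carry cargo either alone or through an adaptor. Of 8 genes, 5 rose, with 0 lower and 3 not passing (median log2 0.24). Kpnb1, importin beta itself and the partner of importin alpha (chromosome 11, 97159714 to 97187881, minus strand), was the most abundant of the 40 genes at 667.5, 648.4 and 647.7 CPM in wild type and 650.2, 695 and 679 CPM in KO. The groups overlapped and the log2 fold change of 0.04 ± 0.04 did not pass (edgeR adjusted p = 0.411), although it did with library totals alone as the scaling (log2 0.12, adjusted p = 0.0252). Ipo4, an importer of histones and ribosomal proteins (chromosome 14, 55625400 to 55635957, minus strand), was at 52.7, 62.5 and 64.3 CPM in wild type and 89.5, 95.8 and 84.6 CPM in KO. It had the largest change of the 8, with no overlap between groups (log2 0.59 ± 0.08, edgeR adjusted p = 0.000221). An annotated gene on the same strand, Gm49378, shares 55.3% of the Ipo4 exon bases, so reads of the pair may not be separated.

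Ipo9, another importer of histones (chromosome 1, 135382312 to 135430499, minus strand), was at 91.9, 96.5 and 97.6 CPM in wild type and 110.6, 118 and 112 CPM in KO (log2 0.25 ± 0.05, edgeR adjusted p = 0.00192). Ipo7, which carries ribosomal proteins, histone H1 and signalling proteins, had a log2 fold change of 0.22 ± 0.04, with 357 to 365 CPM in wild type against 402 to 432.5 CPM in KO. Ipo13, a receptor that works in both directions (log2 0.38 ± 0.10), and Ipo11 (log2 0.29 ± 0.06) also rose. The close relative of Ipo7, Ipo8, did not pass at 69.6 to 72.9 CPM in wild type against 66.7 to 68.7 CPM in KO (log2 -0.07 ± 0.05, edgeR adjusted p = 0.252). Ipo5, an importer of ribosomal proteins and histones, missed the threshold (log2 0.10 ± 0.04, edgeR adjusted p = 0.0582) with groups that did not overlap, at 516 to 528 and 540.3 to 573 CPM, and passed without KO replicate 1 (0.0465).

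Exportins carry proteins and RNAs out of the nucleus, and 4 of the 5 rose (median log2 0.30). Xpo1, also called CRM1, the receptor for leucine-rich export signals (chromosome 11, 23256041 to 23298249, plus strand), was at 314.1, 309.8 and 315.0 CPM in wild type and 358, 394 and 407 CPM in KO. The wild-type libraries were within a few CPM of each other and all KO libraries lay above them, and the log2 fold change was 0.30 ± 0.05 (edgeR adjusted p = 0.000922). Xpo5, the exporter of microRNA precursors (chromosome 17, 46202782 to 46243598, plus strand), was at 51.8, 63.5 and 67.2 CPM in wild type and 87.8, 97.9 and 89.9 CPM in KO. Its log2 fold change of 0.59 ± 0.09 (edgeR adjusted p = 0.000386) was the largest of the exportins. Xpo4 (chromosome 14, 57577521 to 57665430, minus strand), which exports the translation factor eIF5A, was at 44.8, 45.9 and 48.5 CPM in wild type and 60.5, 65.3 and 66.0 CPM in KO. This was a rise of 0.46 ± 0.06 on the log2 scale (edgeR adjusted p = 0.000164) with groups apart.

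The remaining exportins changed least. Xpo7, a receptor with cargo in both directions, rose by 0.16 ± 0.05 on the log2 scale (edgeR adjusted p = 0.0154), though not without KO replicate 2 (0.0670) or KO replicate 3 (0.0620). Xpo6, which keeps actin out of the nucleus, did not pass (log2 0.10 ± 0.04, edgeR adjusted p = 0.0919) at 158 to 164 CPM in wild type against 167 to 175 CPM in KO. Xpo1 held 58.2% to 60.9% of exportin RPKM in wild-type libraries, against 57.6% to 60.3% in KO libraries, while the share of Xpo5 was 10.5% to 13.0% and 13.9% to 15.2%.

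Per length, mean levels in wild type spanned 0.346 RPKM for Nup210l to 99.3 RPKM for Kpnb1, with a median of 13.2 RPKM. The 8 members with the highest wild-type RPKM, Kpnb1, Ipo5, Nup210, Nup62, Xpo1, Ipo7, Kpna3 and Kpna2, had a median log2 fold change of 0.14, and 4 of them rose; the other 30 had a median of 0.27 and 20 rose. Across the 38 genes, which are not independent replicates and share libraries, Spearman's rho between wild-type RPKM and log2 fold change was -0.29. The wild-type level enters both quantities, which can by itself make rho negative and lower the median of the top 8. Among the ring genes the level per length ran from 1.64 ± 0.0903 RPKM for Nup35 to 27.5 ± 2.90 RPKM for Nup85 in wild type (SD, n = 3). Exon length here counts every annotated exon of a gene, which understates the level of genes with long rare exons.

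**Figure D4:**
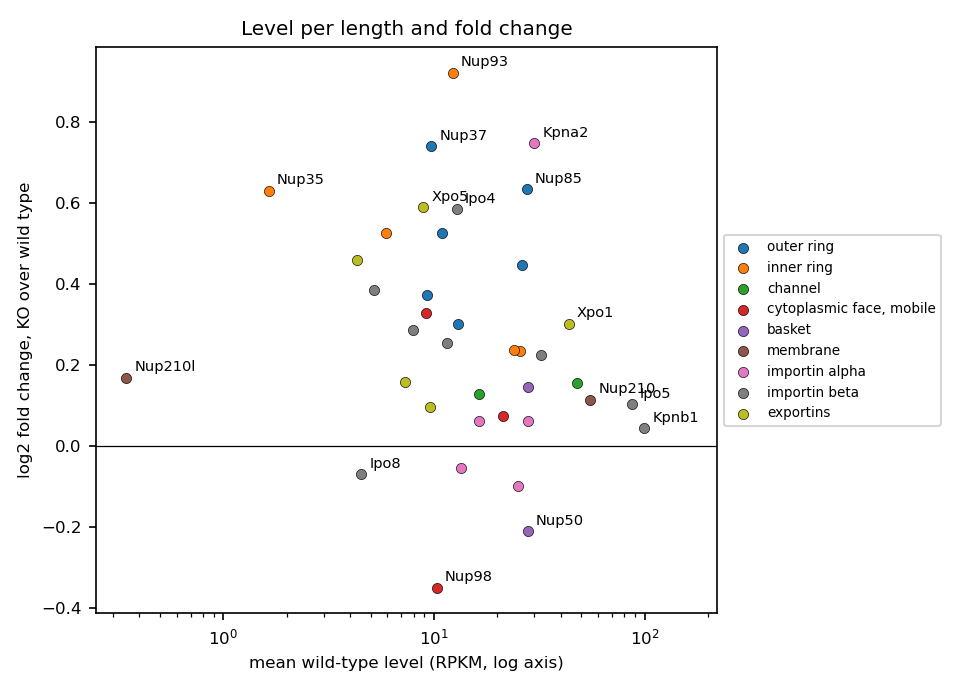
Mean wild-type level per length (x axis, RPKM, log scale) against the log2 fold change of KO over wild type (y axis) for the 38 tested members, coloured by role. Kpnb1, Ipo5 and Nup210, at the right, lie close to 0, and Nup93, Kpna2 and Nup37 lie highest.

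Other genes of the same machinery were taken from 4 lists. Pore proteins named outside the Nup series had 8 of 13 tested members higher, 1 lower and 4 not passing (median log2 0.24), where 26.7% of all tested genes were higher and 26.1% lower. Ndc1, a membrane anchor of the pore, was at 32.8, 36.2 and 37.3 CPM in wild type and 48.6, 53.5 and 53.2 CPM in KO (log2 0.55 ± 0.07, edgeR adjusted p = 0.000139). Sec13, shared by the Y complex and the vesicle coat, rose as well (log2 0.34 ± 0.05, edgeR adjusted p = 0.000407; 0.227 with the GC and length correction). Seh1l, another Y complex subunit, which also acts in amino acid sensing, fell, from 168.0, 146.6 and 148.0 CPM to 124, 117 and 133 CPM (log2 -0.31 ± 0.07, edgeR adjusted p = 0.00346). The scaffold genes therefore did not all move in the same direction. Seh1l fell, as did Nup98, whose gene also yields a Y complex subunit.

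Ran and its regulators supply the direction of transport, and 11 of 20 tested genes of the list on the Ran cycle and other transport factors rose, with 0 lower and 9 not passing (median log2 0.16; 26.7% of all tested genes were higher and 26.1% lower). Ran itself was at 284.8, 314.7 and 312.0 CPM in wild type and 435.1, 474.5 and 451.8 CPM in KO, without overlap (log2 0.58 ± 0.05, edgeR adjusted p = 4.35e-05). Ran has retrocopies that may share its reads; the 1 in the list, Rasl2-9, was under the filter. Ranbp1, which helps to strip Ran-GTP from receptors in the cytoplasm, was at 64.5, 86.7 and 79.0 CPM in wild type and 147, 178 and 159 CPM in KO (log2 1.07 ± 0.10, edgeR adjusted p = 4.89e-05). Named after their values were seen, Rcc1, the nuclear exchange factor that loads Ran with GTP (log2 0.88 ± 0.09), and Cse1l, the exportin that returns importin alpha to the cytoplasm (log2 0.66 ± 0.07), rose too. Cse1l stood at 93.3, 105.7 and 111.4 CPM in wild type and 151.8, 174.1 and 165.4 CPM in KO.

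Lists for mRNA export and the nuclear envelope held calls in both directions, as all tested genes did (26.7% higher and 26.1% lower). Among 24 tested mRNA export factors the rises numbered 11 and the falls 5, with 8 not passing (median log2 0.16). Ddx39, an RNA helicase of the export complex (log2 0.68 ± 0.07, edgeR adjusted p = 6.46e-05), and Alyref, an export adaptor (log2 0.55 ± 0.06, edgeR adjusted p = 0.000119), rose. Poldip3 (log2 -0.35 ± 0.06) and Ddx19b, the helicase that releases mRNA at the cytoplasmic face (log2 -0.22 ± 0.05, and -0.139 with library totals), fell. In the list for the lamina and nuclear envelope, 8 of 19 were higher, 4 lower and 7 not passing (median log2 -0.05). Among the 8, named after their values were seen, were Ankle1 (log2 0.76 ± 0.10), Banf1 (log2 0.43 ± 0.06) and Lmnb1 (log2 0.40 ± 0.06). Sun2, which links the envelope to the cytoskeleton (190 ± 3.23 to 147 ± 5.55 CPM), and Lemd2, an inner membrane protein (94.5 ± 9.58 to 61.9 ± 4.01 CPM), fell, as given by log2 fold changes of -0.37 ± 0.05 and -0.61 ± 0.08.

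**Figure D5:**
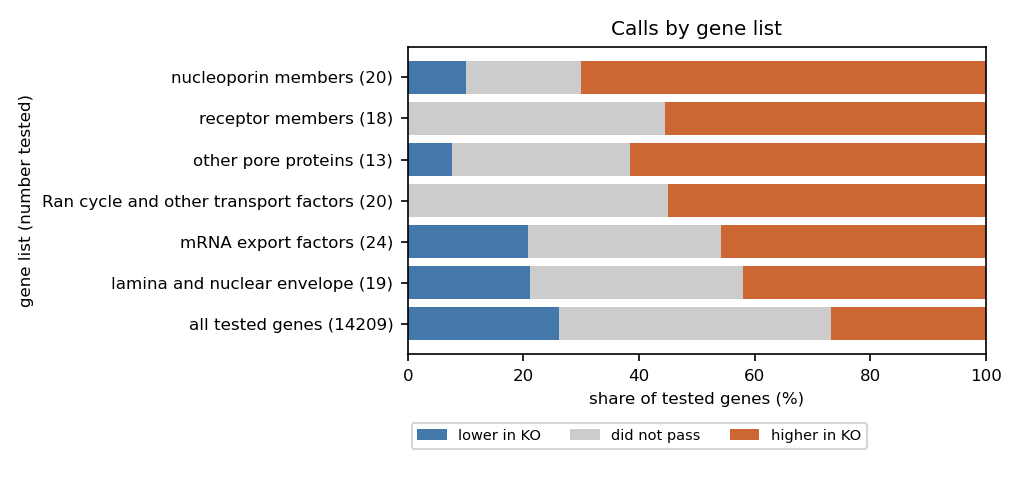
Share of tested genes (x axis, percent) that were lower, did not pass or were higher in KO at an edgeR adjusted p under 0.05, for the nucleoporin members, the receptor members, 4 lists of related genes and all tested genes (y axis, number tested in brackets). Among the nucleoporin members 14 of 20 were higher and 2 lower, and among the receptors 10 of 18 were higher and 0 lower.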

How the data were processed

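Members and gene lists were chosen with earlier results of these data known. Raw counts of reads were deposited as 1 table, rows being gene symbols and columns libraries; the submitters' processing notes name STAR 2.5.2, HTSeq 0.6.1 and genome mm10 among others, without roles. Libraries were made with a stranded poly(A) kit, per the labels' protocols; the strand setting of counting, the annotation and the treatment of reads with several matches are not given in sources used here. All rows stayed in the totals, including 27 whose symbols had become dates (0.241% of counts).

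Counts were tested with edgeR 4.0.16 (R 4.3.3): filterByExpr, TMM (factors 0.949 to 1.03), the quasi-likelihood F test for genotype (4 residual degrees of freedom), then Benjamini-Hochberg adjustment over 14209 genes. The SE given with edgeR fold changes was derived from that test, as the absolute log2 fold change divided by the square root of F. The procedure was run on simulated counts in which few genes changed and no library was an outlier. That run does not measure error rates in the present data. Positions and exon lengths are from GENCODE M21 (all 40 members matched by symbol), promoters from RefSeq GRCm38.p6. Exons of 13 members overlap another annotated gene. Per-library values were given for Kpnb1, Xpo1, Nup98 and Nup210, for the 2 members of each role with the smallest adjusted p, and for called members against their role's majority; in related lists the same rule took at most 2 of the latter. Alternatives were other scalings and filters, DESeq2 1.42.0, limma-voom (limma 3.58.1), a replicate block, a stricter threshold, offsets from splines of GC content and length, and each library left out.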

Additional observations from a re-analysis of the deposited data

How the results depend on the processing

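Across 16 alternatives, 21 of the 24 members called higher kept that call in every one; Nup62, Nup153 and Xpo7 lost it in some. Nup98 and Nup50 were called lower in all 16. The count of members called higher ran from 21 to 27 with a library left out, the count called lower was 2 each time, the median log2 fold change ran from 0.22 to 0.26, and the count of all called genes from 5985 to 7534. With library totals alone as the scaling the median of the members was 0.31, while that of all tested genes was 0.08 instead of 0.01. Of 832 values of the 38 tested members and 14 related genes under the alternatives, 791 kept their direction and their side of the threshold, 15 lost the call, 21 gained it and 5, none of them called, changed sign; the cause was not tested. These were Nup54 (-0.007) and Kpna3 (-0.012) with the GC and length offsets, Kpna1 (0.022) and Ipo8 (0.007) with library totals, and Kpna1 without wild-type replicate 1 (0.016; -0.108 to 0.016 over the libraries left out). With the replicate number as a block, 27 members were called higher and 2 lower, with a median of 0.24, and 7900 genes were called in all; the members gained were Nup54, Nup210 and Ipo5. Correlations of deviations between same-numbered libraries were 0.17, 0.13 and 0.01. Wild-type replicates 1 and 2 correlated best with their own number, and wild-type replicate 3 with KO replicate 2 (0.10). With 3 libraries per group these values cannot decide whether the numbers pair the samples. Low counts at the filter kept only Kpna7, with 1 to 10 counts per library, and Nup62cl, with 0 or 1, from being tested. Nup210l, with 44 to 80 counts per library, had the largest SE of the tested members (0.14).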
